A study of Mus musculus with 7 samples.

Results

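The keratins Krt5, Krt14, Krt15, Krt17, Krt6a, Krt4, Krt7, Krt8, Krt18 and Krt19 are the structural proteins by which basal, luminal, ductal and urothelial cells of the prostate and its neighbouring epithelia are usually told apart. All probes whose accession names 1 of these 10 genes were taken, which gave 11 of the 41174 probes on the array, 1 per gene except Krt8, which had 2. Prostate RNA was read on 7 Agilent 2-colour arrays, on which red is the prostate sample and green a common mouse reference RNA. The first group, PB-NICD, held 3 samples from mice that carry ARR2PB-Cre, a Cre recombinase under a prostate promoter, together with the ROSA(N1IC) allele, from which Cre releases the intracellular domain of Notch1. Per the labels, these mice form prostatic intraepithelial neoplasia. The control group held 4 samples from mice with the ROSA(N1IC) allele that the labels call wild-type for the domain, and all mice were of the C57Bl/6 strain. The allele is therefore named in both groups, while the Cre is named in PB-NICD alone. Age, prostate lobe and the number of animals behind each sample are not stated in the labels, so p-values measure the spread between these samples.

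Keratins form the intermediate filaments of epithelial cells, and each filament needs a type I and a type II chain. In prostate, basal cells next to the stroma carry the pair Krt5 (type II) and Krt14 (type I), and secretory luminal cells carry Krt8 (type II) and Krt18 (type I). The intracellular domain of Notch1 acts in the nucleus with the DNA-binding protein RBPJ, and Notch signalling is known in prostate for its part in luminal and basal cell fate. On the GRCm38.p6 assembly, per RefSeq, the type II genes Krt4, Krt5, Krt6a, Krt7 and Krt8 lie on chromosome 15 together with Krt18, the direct neighbour of Krt8. The other type I genes, Krt14, Krt15, Krt17 and Krt19, lie on chromosome 11, where Krt15 and Krt19 are direct neighbours.

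Of the 10 genes, 5 had an entry in the RefSeq promoter table. The 250 bases before the start of 3 of them are shown, because Krt5 had the lowest p-value of the members and Krt8 and Krt18 are adjacent genes whose products pair in 1 filament. Each is written 5' to 3' on the strand of the gene, and capitals mark TGGGAA, the core of the RBPJ site, searched on both strands. The windows are chr15:101712906-101713155 on the minus strand for Krt5, chr15:102004343-102004592 on the minus strand for Krt8 and chr15:102027966-102028215 on the plus strand for Krt18, all on GRCm38.p6.
Krt5: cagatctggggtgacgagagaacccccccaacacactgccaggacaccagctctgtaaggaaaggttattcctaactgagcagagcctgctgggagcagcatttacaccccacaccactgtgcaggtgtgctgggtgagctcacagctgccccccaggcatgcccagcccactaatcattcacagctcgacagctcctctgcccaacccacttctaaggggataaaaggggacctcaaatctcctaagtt
Krt8: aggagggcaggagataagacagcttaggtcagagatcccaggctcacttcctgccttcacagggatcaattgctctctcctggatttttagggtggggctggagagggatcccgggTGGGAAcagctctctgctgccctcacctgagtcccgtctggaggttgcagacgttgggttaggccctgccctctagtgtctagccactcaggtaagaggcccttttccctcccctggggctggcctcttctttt
Krt18: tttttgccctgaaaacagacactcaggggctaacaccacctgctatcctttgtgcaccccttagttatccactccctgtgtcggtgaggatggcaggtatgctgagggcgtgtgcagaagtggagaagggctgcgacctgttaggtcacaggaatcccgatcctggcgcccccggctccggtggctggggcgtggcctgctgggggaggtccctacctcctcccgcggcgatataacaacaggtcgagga
The Krt8 window held 1 match, which began 134 bases before the gene's start, and the Krt5 and Krt18 windows held none. Of all 32851 promoter windows of this length, 7094 (21.6%) held at least 1 match, so a single match is common.

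The arrays differed in quality in ways that did not follow the groups alone. The sample channel exceeded background clearly at 53.7% to 67.2% of probes on the PB-NICD arrays, against 45.3% to 61.1% on control arrays, and no spot was saturated. The arrays lay on 2 slides, slide 1 with PB-NICD 1, control 1 and control 2 and slide 2 with the rest. The scanner software had marked 6.02% to 17.8% of the spots of each array as outliers. Across the 10395 items with a value on every array, the log2 ratios of PB-NICD 1 correlated with those of PB-NICD 2 and 3 at 0.831 and 0.832, whereas PB-NICD 2 and 3 correlated at 0.955 and pairs of controls at 0.932 to 0.962. As a check of the labels, Notch1 had log2 ratios of 0.64 (an outlier spot), 2.63 and 2.74 in PB-NICD 1, 2 and 3, against 0.05, 0.30, 0.76 and 0.67 in controls 1 to 4. The array labelled PB-NICD 1 therefore lay within the control range for Notch1, and where the Notch1 probe lies relative to the part of the gene in the transgene is not known here. The changes of the 10 keratins are given below with and without this array.

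Krt5 fell 3.64-fold in the PB-NICD prostates, and Krt15 fell as well, while no member rose when outlier spots were left out. With those spots kept, Krt4, a keratin of ductal and other stratified epithelia, also rose. Values are log2 ratios of sample to reference after background correction and loess scaling within each array, a change is the mean of PB-NICD less that of controls, and a call is a Benjamini-Hochberg adjusted p under 0.05 from limma over all items. With outlier spots left out, 8 of the 10 genes could be tested, of which 0 rose and 2 fell, and 1 rising and 4 falling had an unadjusted p under 0.05. Of all 16957 items tested, 2.68% were called, 0.401% as rises and 2.28% as falls. The share of all items with an unadjusted p under 0.05 was not counted, here or for the lists below. Krt18, with an unadjusted limma p of 0.0224, ranked only 1701 of the 16957 items, so unadjusted p-values this low were common. The median change was -0.29 over the 8 tested genes and -0.05 over all items. With outlier spots kept, a choice made after the data were seen because Krt4 and Krt7 had too few values without them, all 10 genes were tested, of which 1 rose (Krt4) and 2 fell (Krt5 and Krt15). Then 3.21% of 19570 items were called, 0.46% as rises and 2.75% as falls, and the median change was -0.24 over the 10 genes and -0.05 over all items. With median centring of each array in place of loess, 0 of the 10 genes were called in limma in either series, and 0 rises and 1 fall among all items with outlier spots left out. In the authors' deposited table, tested the same way, 2 of the 10 genes rose (Krt4 and Krt19) and 4 fell (Krt5, Krt14, Krt15 and Krt18), beside 1460 rises and 2257 falls among all items. In whole tissue, fewer cells of a type and less RNA per cell cannot be told apart.

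**Figure D1:**
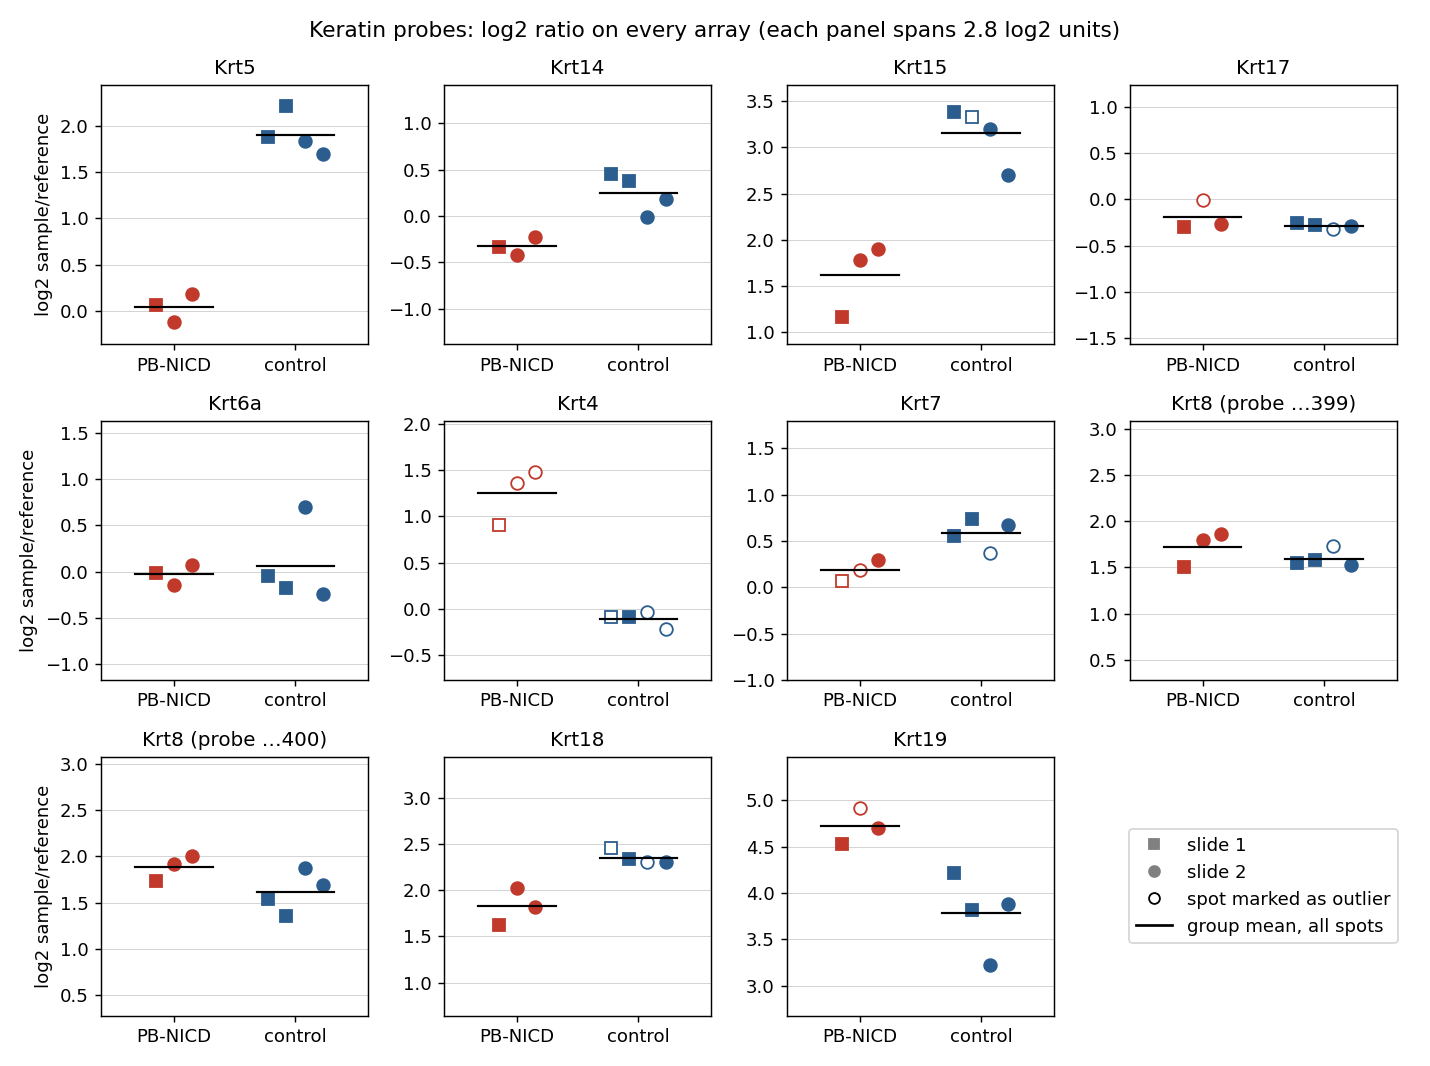
Each panel plots the log2 ratio of sample to reference (vertical axis, 2.8 log2 units in every panel) of 1 keratin probe on each of the 3 PB-NICD and 4 control arrays, squares for slide 1 and circles for slide 2, open symbols for spots marked as outliers and lines for group means over all spots. The Krt5 and Krt15 symbols of the PB-NICD arrays lie below every control, the Krt4 symbols lie above every control with 6 of 7 of its spots open, and the Krt17, Krt6a and both Krt8 panels overlap.

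Among the basal keratins, Krt5, the type II chain of basal cells, had log2 ratios of 0.06, -0.13 and 0.18 in PB-NICD 1, 2 and 3, against 1.88, 2.21, 1.83 and 1.69 in controls 1 to 4. The groups were far apart, and no spot of this probe was marked as an outlier. The means were 0.04 ± 0.15 (SD, n = 3) in PB-NICD and 1.90 ± 0.22 (SD, n = 4) in controls. The change was -1.87 ± 0.15 (SE), a 3.64-fold fall (limma adjusted p = 0.000427), and ranked 18 of the 16957 items by p-value. It was -1.99 within slide 1, -1.74 within slide 2 and -1.88 without PB-NICD 1. Before any scaling, the red signal of the Krt5 spot was 410, 478 and 524 in PB-NICD 1, 2 and 3, against 577.5, 713.5, 1278 and 997 in controls 1 to 4. The unscaled sample signal thus also did not overlap between the groups. The green signal of that spot was 1984 to 2705 on PB-NICD arrays and 2196 to 3240 on control arrays.

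Krt14, the type I partner of Krt5, had log2 ratios of -0.33, -0.42 and -0.22 in PB-NICD 1, 2 and 3, against 0.45, 0.38, -0.01 and 0.18 in controls 1 to 4. All PB-NICD values lay below all controls, with control 3 nearest to them. The change of -0.57 ± 0.14 (SE, n = 3 and 4) was not called (limma adjusted p = 0.0755). It passed with the slide as a fixed block (-0.54, limma adjusted p = 0.0313) or a random block (-0.56, limma adjusted p = 0.0366) and within slide 1 alone (-0.75, limma adjusted p = 0.0146). It also passed with quantile scaling between arrays (-0.58, limma adjusted p = 0.0447) and in the authors' table (-0.42, limma adjusted p = 0.00658). It did not pass within slide 2 (-0.41, limma adjusted p = 0.179) or without PB-NICD 1 (-0.57, limma adjusted p = 0.0613). The unscaled red signal of the Krt14 spot did not run the same way, with 516, 670 and 713.5 in PB-NICD 1, 2 and 3 against 370, 397, 549.5 and 549 in controls 1 to 4. The median red signal over all spots was also higher on PB-NICD arrays (at least 88 on each PB-NICD array, against 69 to 87.5 on control arrays), so a lower ratio here is relative to the other spots of the array.

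Krt15, a type I keratin of basal cells and of the basal layer of stratified epithelia, had log2 ratios of 1.17, 1.79 and 1.90 in PB-NICD 1, 2 and 3, against 3.38, 3.32 (an outlier spot), 3.20 and 2.71 in controls 1 to 4. PB-NICD 1 was the lowest and the groups did not overlap. The unscaled red signals of the Krt15 spot did overlap, with 544, 687 and 738.5 in PB-NICD 1, 2 and 3 against 640, 689, 1481 and 975 in controls 1 to 4. The change was -1.48 ± 0.24 (SE), a 2.78-fold fall (limma adjusted p = 0.0176), and -1.53 ± 0.22 with the outlier spot kept (limma adjusted p = 0.00562). Without PB-NICD 1 it was -1.25 (limma adjusted p = 0.00789). With outlier spots left out, the call was lost without control 1 (-1.34, limma adjusted p = 0.0791) and without control 3 (-1.42, limma adjusted p = 0.0762). Within slide 2 the change was -1.11, and within slide 1, where it needs the outlier spot, -2.18. These sizes differ by more than 1.5 times, and the difference between slides was not tested.

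Krt17 and Krt6a, keratins of activated and appendage epithelium in skin, made up the rest of the basal group. Krt17 had log2 ratios of -0.30, 0.00 (an outlier spot) and -0.26 in PB-NICD 1, 2 and 3, against -0.25, -0.27, -0.32 (an outlier spot) and -0.29 in controls 1 to 4. The groups overlapped, and the difference was -0.01 ± 0.14 (SE; limma adjusted p = 0.992) without outlier spots and 0.10 ± 0.12 with them, or 0.15 with them but without PB-NICD 1. Krt6a had log2 ratios of -0.01, -0.15 and 0.08 in PB-NICD 1, 2 and 3, against -0.04, -0.17, 0.70 and -0.24 in controls 1 to 4. Control 3 was the highest and the groups overlapped (difference -0.09 ± 0.22, SE, limma adjusted p = 0.918, and -0.10 without PB-NICD 1). This spot was dim: it was well above background on 3 of 7 arrays, PB-NICD 3, control 3 and control 4.

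Of the keratins of luminal, ductal and urothelial cells, Krt4 is a type II keratin of the suprabasal layers of oesophagus and other wet stratified epithelia, and is also found in ductal cells. Its log2 ratios were 0.91, 1.36 and 1.48 in PB-NICD 1, 2 and 3, against -0.09, -0.09, -0.04 and -0.22 in controls 1 to 4. The groups were well apart, with PB-NICD 1 the lowest of its group. However, every one of these spots except that of control 2 was marked as an outlier, on each for the green channel and on PB-NICD 2 for the red channel too, so Krt4 could not be tested with such spots left out. Of the 41174 probes, 805 (1.96%) were marked on 6 or 7 arrays. With the spots kept, the means were 1.25 ± 0.31 (SD, n = 3) in PB-NICD and -0.11 ± 0.08 (SD, n = 4) in controls. The change of 1.36 ± 0.15 (SE), a 2.57-fold rise, had a limma adjusted p of 0.00157 and ranked 82 of 19570 items. It was 1.00 within slide 1 (limma adjusted p = 0.0065), 1.55 within slide 2 (limma adjusted p = 0.000367) and 1.53 without PB-NICD 1. The sample channel showed the same direction unscaled, with red signals of 609, 1033.5 and 1165.5 in PB-NICD 1, 2 and 3 against 159, 147.5, 257 and 228 in controls 1 to 4. That direction alone does not set Krt4 apart, since PB-NICD arrays were brighter in red. Unscaled red was also higher for Krt8 (brighter probe, 4331 to 5857 in PB-NICD, 1696 to 3605 in controls) and Krt17 (666 to 1151 and 284 to 642). Neither of these genes was called, and the unscaled red signal of Krt5 ran the other way. The green signals overlapped, at 1321, 2091 and 2328.5 on PB-NICD arrays 1, 2 and 3 and 2229, 1734.5, 2099 and 2138.5 on control arrays 1 to 4. The Krt4 spot was well above background in the sample channel on all 7 arrays.

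**Figure D2:**
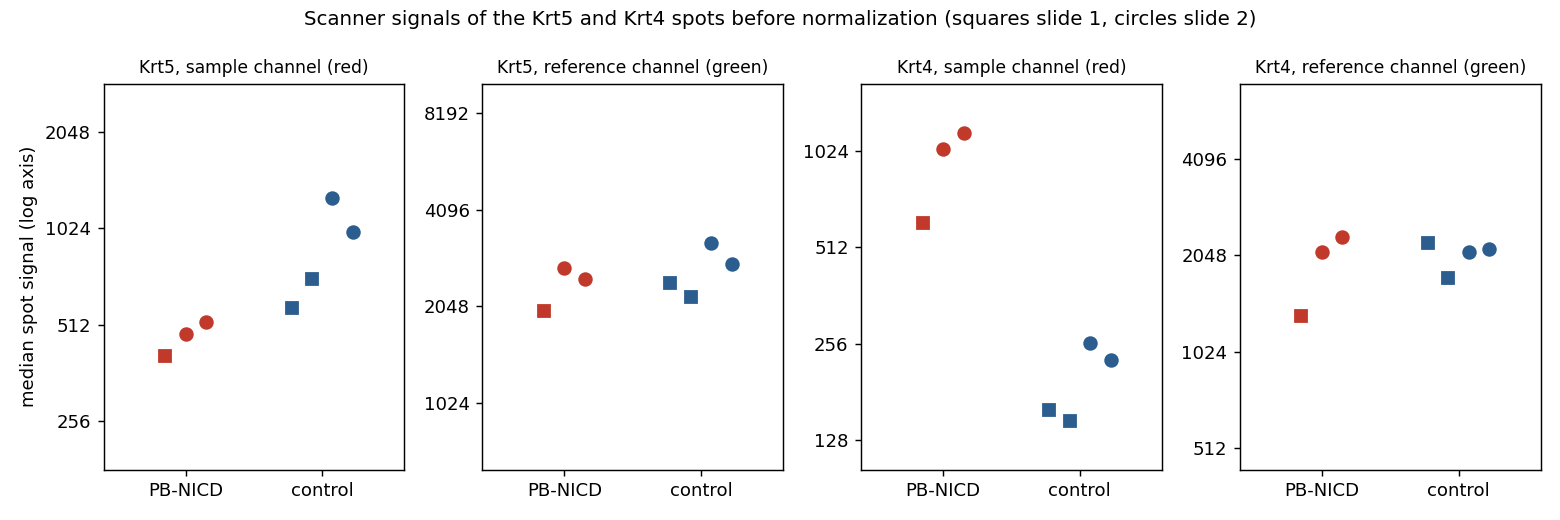
Median scanner signal (vertical log axis, arbitrary units) of the Krt5 and Krt4 spots in the sample (red) and reference (green) channel of each PB-NICD and control array, before background correction and scaling, with squares for slide 1 and circles for slide 2. The red Krt5 signals of PB-NICD arrays (410 to 524) lie below those of controls (577.5 to 1278), the red Krt4 signals of PB-NICD arrays (609 to 1165.5) lie above those of controls (147.5 to 257), and the green signals of both overlap.

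Krt7, a type II keratin of ducts and urothelium, had log2 ratios of 0.07, 0.19 and 0.30 in PB-NICD 1, 2 and 3, against 0.55, 0.73, 0.37 and 0.67 in controls 1 to 4. The groups did not overlap, with PB-NICD 3 and control 3 nearest to each other. The unscaled red signals of the Krt7 spot did overlap and did not run lower in PB-NICD. They were 3193, 5195 and 4808.5 in PB-NICD 1, 2 and 3, against 1861, 2524, 3748 and 3905 in controls 1 to 4. The spots of PB-NICD 1, PB-NICD 2 and control 3 were outliers, which left 1 PB-NICD value and no test. With the spots kept, the change was -0.40 ± 0.13 (SE, n = 3 and 4; limma adjusted p = 0.159), and -0.34 without PB-NICD 1 (limma adjusted p = 0.191).

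Krt8, the type II chain of luminal cells, was read by both of its probes. The brighter probe had log2 ratios of 1.51, 1.80 and 1.86 in PB-NICD 1, 2 and 3, against 1.55, 1.58, 1.73 (an outlier spot) and 1.52 in controls 1 to 4. The dimmer probe had 1.74, 1.92 and 2.00 in PB-NICD 1, 2 and 3, against 1.54, 1.36, 1.87 and 1.69 in controls 1 to 4. The groups overlapped on both probes. The change was 0.17 ± 0.14 (SE; limma adjusted p = 0.687) on the brighter and 0.27 ± 0.15 (SE; limma adjusted p = 0.495 over the 21304 probes tested) on the dimmer one, so both probes pointed the same way and neither was called. Without PB-NICD 1 the change on the brighter probe was 0.28 (limma adjusted p = 0.245), and within slide 1 it was -0.06 (limma adjusted p = 0.851).

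Krt18, the type I partner of Krt8, had log2 ratios of 1.63, 2.03 and 1.82 in PB-NICD 1, 2 and 3, against 2.46, 2.34, 2.30 and 2.30 in controls 1 to 4. All PB-NICD values were below all controls, and the spots of controls 1 and 3 were outliers. The change was -0.50 ± 0.17 (SE; limma adjusted p = 0.224) without these spots and -0.53 ± 0.13 (limma adjusted p = 0.0639) with them. The second passed in 6 of 21 alternatives, among them the slide as a fixed block (-0.54, limma adjusted p = 0.0308) and processed signals (-0.54, limma adjusted p = 0.0193). Without PB-NICD 1 it was -0.43 (limma adjusted p = 0.0747). As for Krt14, the unscaled red signal was not lower, with 5640.5, 7178 and 5971.5 in PB-NICD 1, 2 and 3 against 3605.5, 3232, 5304 and 4953 in controls 1 to 4.

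Krt19, a type I keratin of simple and ductal epithelium that also marks cells between the basal and luminal state, had log2 ratios of 4.53, 4.92 (an outlier spot) and 4.70 in PB-NICD 1, 2 and 3, against 4.22, 3.82, 3.22 and 3.88 in controls 1 to 4. PB-NICD values lay above all controls, whose own spread was wide. The change was 0.83 ± 0.25 (SE; limma adjusted p = 0.146) without the outlier spot and 0.93 ± 0.22 (limma adjusted p = 0.0519) with it. Without the outlier spot it passed with processed signals (1.09, limma adjusted p = 0.049), without background subtraction (0.99, limma adjusted p = 0.0337) and with quantile scaling between arrays (1.92, limma adjusted p = 0.0326). With the outlier spots kept, it passed with the slide as a fixed block (0.96, limma adjusted p = 0.0177), within slide 2 (1.26, limma adjusted p = 0.00872) and without PB-NICD 1 (1.03, limma adjusted p = 0.0287), and not within slide 1 (0.52, limma adjusted p = 0.126). Krt19 and its chromosomal neighbour Krt15 therefore had changes of opposite sign, 0.93 and -1.53 with outlier spots kept, of which that of Krt15 was called.

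Over the 10 genes with outlier spots kept, the groups did not overlap for 7. By log2 ratio, Krt5, Krt14, Krt15, Krt7 and Krt18 were lower and Krt4 and Krt19 higher on every PB-NICD array than on any control array. Of all 19570 items, 14.8% did not overlap, 3.04% higher and 11.7% lower in PB-NICD.

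**Figure D3:**
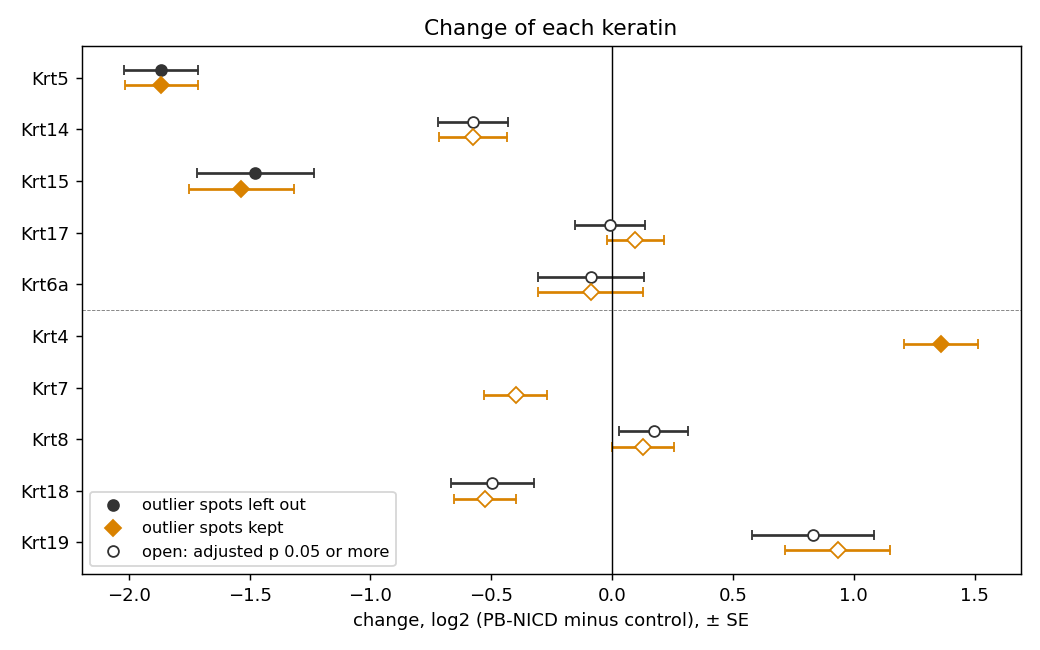
Change of each keratin (horizontal axis, log2, PB-NICD minus control) with its standard error as bars, circles with outlier spots left out and diamonds with them kept, filled where the limma adjusted p was under 0.05. Krt5 and Krt15 are filled on the negative side in both series, Krt4 is filled at 1.36 in the series with outlier spots kept, and the dashed line parts basal keratins (above) from the others (below).

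Since a filament takes up both chains of a pair in equal amounts, the difference between the partners on the same array was also taken, with outlier spots kept. Krt5 minus Krt14, a difference of log2 ratios, was 0.39, 0.29 and 0.41 in PB-NICD 1, 2 and 3, against 1.43, 1.83, 1.85 and 1.51 in controls 1 to 4. The groups did not overlap, and the mean was 0.36 ± 0.06 (SD, n = 3) in PB-NICD and 1.65 ± 0.22 (SD, n = 4) in controls, a change of -1.29. Krt8 minus Krt18, from the brighter Krt8 probe, rests on outlier spots in control 1 (Krt18) and control 3 (both genes), and was -0.12, -0.23 and 0.04 in PB-NICD 1, 2 and 3, against -0.91, -0.76, -0.58 and -0.78 in controls 1 to 4. Here too the groups did not overlap, with means of -0.10 ± 0.13 (SD, n = 3) in PB-NICD and -0.76 ± 0.14 (SD, n = 4) in controls, a change of 0.65. In an exact two-sided permutation test over samples, both gave p = 0.0286, the smallest this design allows with 35 ways to assign the labels, and p = 0.0286 after adjustment over the 2 pairs. These pairs were chosen with the changes of the single genes known, so the p-values restate those changes and are no independent support. The change was -1.24 within slide 1 and -1.33 within slide 2 for Krt5 minus Krt14, and 0.72 within slide 1 and 0.58 within slide 2 for Krt8 minus Krt18. Without PB-NICD 1 these changes were -1.30 for Krt5 minus Krt14 and 0.66 for Krt8 minus Krt18. The difference does not say which partner changed, and the ratios of different probes have no common zero.

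**Figure D4:**
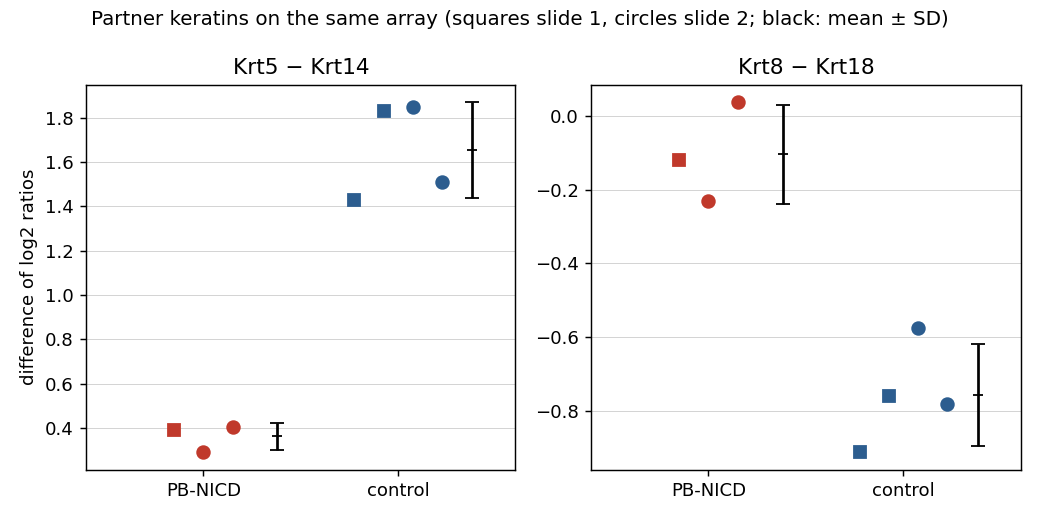
Difference of log2 ratios between partner keratins on the same array (vertical axis), Krt5 minus Krt14 on the left and Krt8 minus Krt18 on the right, for 3 PB-NICD and 4 control arrays, squares for slide 1 and circles for slide 2, with black bars for mean ± SD. Krt5 minus Krt14 is 0.29 to 0.41 in PB-NICD and 1.43 to 1.85 in controls, and Krt8 minus Krt18 is -0.23 to 0.04 in PB-NICD and -0.91 to -0.58 in controls.

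No other keratin was called in either series as reported, though some were under other settings. Of 44 other keratins listed, 28 were on the array, 23 were well above background on at least 1 array and 14 could be tested, of which 0 rose and 0 fell at an adjusted p under 0.05 in limma, 1 rose and 0 fell at an unadjusted p under 0.05, and the median change was -0.15. Without PB-NICD 1 there was 1 call. The lowest p-values belonged to Krt1, a keratin of cornified skin (0.55, limma adjusted p = 0.228), and to Krt87 (-0.29, limma adjusted p = 0.36) and Krt71 (-0.38, limma adjusted p = 0.436), keratins of hair. Among the 21 partners of the keratin network, 19 were on the array and 15 tested, with 0 rises and 0 falls in limma, 0 rises and 3 falls at an unadjusted p under 0.05, and a median of -0.04. Their lowest p-values were those of Des (-0.58, limma adjusted p = 0.0827), the intermediate filament protein of muscle, Vim (-0.68, limma adjusted p = 0.172), that of mesenchymal cells, and Plec (-0.33, limma adjusted p = 0.225), which links filaments to hemidesmosomes.

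Markers of the same cell types other than keratins were read beside these results. Of 16 basal markers, 15 were on the array and 13 tested, of which 0 rose and 2 fell, with a median change of -0.19. Lgals7, the epithelial lectin galectin-7, had log2 ratios of 0.04, 0.23 and 0.56 in PB-NICD 1, 2 and 3, against 1.75, 1.10, 2.20 and 1.62 in controls 1 to 4 (change -1.39 ± 0.24, SE, limma adjusted p = 0.0173). Itga6, the integrin chain by which basal cells hold the basement membrane, had -0.02, 0.21 and 0.04 in PB-NICD 1, 2 and 3, against 0.72, 0.58, 0.97 and 0.68 in controls 1 to 4 (change -0.66 ± 0.14, SE, limma adjusted p = 0.0376). Neither overlapped between the groups. Trp63, the transcription factor that defines basal cells, was at 0.00, 0.36 and 0.31 in PB-NICD 1, 2 and 3, against 0.12, 0.58, 0.98 and 0.98 in controls 1 to 4, which overlapped (change -0.44, limma adjusted p = 0.404). The basal list's mean log2 ratio per array was 0.02 to 0.27 in PB-NICD and 0.33 to 0.50 in controls. With outlier spots kept, Egfr, the receptor for epidermal growth factor, rose as well, with 0.35, 0.84 and 0.75 in PB-NICD 1, 2 and 3 against -0.05, -0.08, 0.03 and 0.00 in controls 1 to 4 (change 0.67, limma adjusted p = 0.0342), and it missed the threshold without them (0.69, limma adjusted p = 0.0676). With outlier spots left out, the list had 2 rises and 2 falls without PB-NICD 1. With the slide as a fixed block it had 1 rise and 4 falls, and with processed signals 2 rises and 3 falls. Its count was 0 without PB-NICD 2, control 1 or control 4, and 1 without PB-NICD 3 or control 2.

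Of 16 luminal markers, all were on the array and 15 tested, of which 0 rose and 2 fell, with a median change of -0.22. The genes that fell were the epithelial transcription factor Ehf (-1.13 ± 0.19, SE, limma adjusted p = 0.0281) and Cd24a, a surface protein of luminal cells (-2.00 ± 0.34, SE, limma adjusted p = 0.0389, from 2 values in each group). The luminal list was lowest in PB-NICD 1, where the median difference from the control mean was -0.98, against 0.14 in PB-NICD 2 and -0.03 in PB-NICD 3. Its count was 2 without PB-NICD 1, 1 without PB-NICD 2 or control 1, and 0 without PB-NICD 3, control 2, control 3 or control 4. All 15 genes were tested without control 1 or control 3, but 12 to 14 in the other fits. Cd24a had values on PB-NICD 2, PB-NICD 3, control 2 and control 4 alone, and Ehf had PB-NICD values on PB-NICD 1 and 3 alone. A lower count can therefore reflect a lost test, and the 2 calls without PB-NICD 1 need not be these genes. None of the 7 proximal luminal markers, of which 6 were tested, was called in limma (2 fell at an unadjusted p under 0.05), and their median change was -0.27.

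For the epithelia in which Krt4, Krt7 and Krt19 are also made, 1 of the 4 tested genes of the 8 urothelial markers was called. Upk3a, a plaque protein of urothelium, had log2 ratios of 5.25, 4.23 and 4.01 in PB-NICD 1, 2 and 3, against -0.23, -0.06, -0.05 and -0.19 in controls 1 to 4 with outlier spots kept. The change was 4.87 ± 0.33 (SE, limma adjusted p = 0.00153) from the 2 values per group left without outlier spots, and it could not be tested without PB-NICD 1, PB-NICD 2, control 2 or control 4. With outlier spots kept it was 4.63 ± 0.26 (limma adjusted p = 5.5e-05). Upk1b, another plaque protein, was at 0.45, 3.68 and 3.29 in PB-NICD 1, 2 and 3, against 3.06, 2.92, 4.33 and 4.23 in controls 1 to 4 (change -1.16, limma adjusted p = 0.535). Upk1a, also a plaque protein, had a value in the series with outlier spots kept, where it was higher by 0.68 (limma adjusted p = 0.168). In that series 5 urothelial markers were tested, of which 2 rose and 0 fell at an unadjusted p under 0.05, with a median change of 0.04, against -0.26 over the 4 tested without them. On slide 1 with outlier spots kept, Upk3a was at 5.25 in PB-NICD 1, against -0.23 and -0.06 in controls 1 and 2. With outlier spots left out, Upk3a could not be tested within slide 1, where control 2 gave the only control value. In this series the list had 1 rise and 2 falls with the slide as a fixed block. None of the 6 tested squamous markers was called in limma (0 at an unadjusted p under 0.05), and their median change was 0.01. Of the mesothelial list only Msln could be tested (-0.19, limma adjusted p = 0.853). Its log2 ratios were -1.57, -2.87 and -2.86 in PB-NICD 1, 2 and 3, against -2.22, -2.23, -2.35 and -2.19 in controls 1 to 4. PB-NICD 1 thus lay above all controls and PB-NICD 2 and 3 below them, which the mean change hides. Msln was called as a fall in limma without PB-NICD 1 (-0.62) and within slide 2 (-0.60), while its change within slide 1 was 0.65. Smooth muscle markers had a median change of -0.55 over 7 tested genes, of which 0 were called in limma and 6 fell at an unadjusted p under 0.05, and fibroblast markers had a median of -0.22 over 5 tested genes, with 0 called and 0 at an unadjusted p under 0.05. With the slide as a fixed block, 4 smooth muscle markers fell, with it as a random block 3 and within slide 1 alone 4. Cnn1, the smooth muscle calponin, fell with outlier spots kept (-0.75, limma adjusted p = 0.0465), as did Dcn, the fibroblast proteoglycan decorin (-0.79, limma adjusted p = 0.0141). Without PB-NICD 1 the smooth muscle count was 2, and without control 4 it was 1. The part of these other cell types in the keratin results was not tested.

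The genes with a symbol whose profile over the 7 arrays was nearest to that of Krt5 were sought among 7540 candidates, by the root mean square difference between profiles centred on their own means. Among the nearest were Neu1 (0.242), the lysosomal sialidase, Odc1 (0.25), the first enzyme of polyamine synthesis, Edem1 (0.256), which takes part in disposal of misfolded glycoproteins, and Asns (0.282), asparagine synthetase. The median over all candidates was 0.928. Their changes ran from -1.99 for Neu1 to -1.63 for Asns, sizes that the choice by likeness to Krt5 fixes. None of these 4 belongs to the basal list, which with 13 tested genes is a small part of the candidates. Krt8 and Krt18 lacked values on some arrays, so that no such search was made for them.

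**Figure D5:**
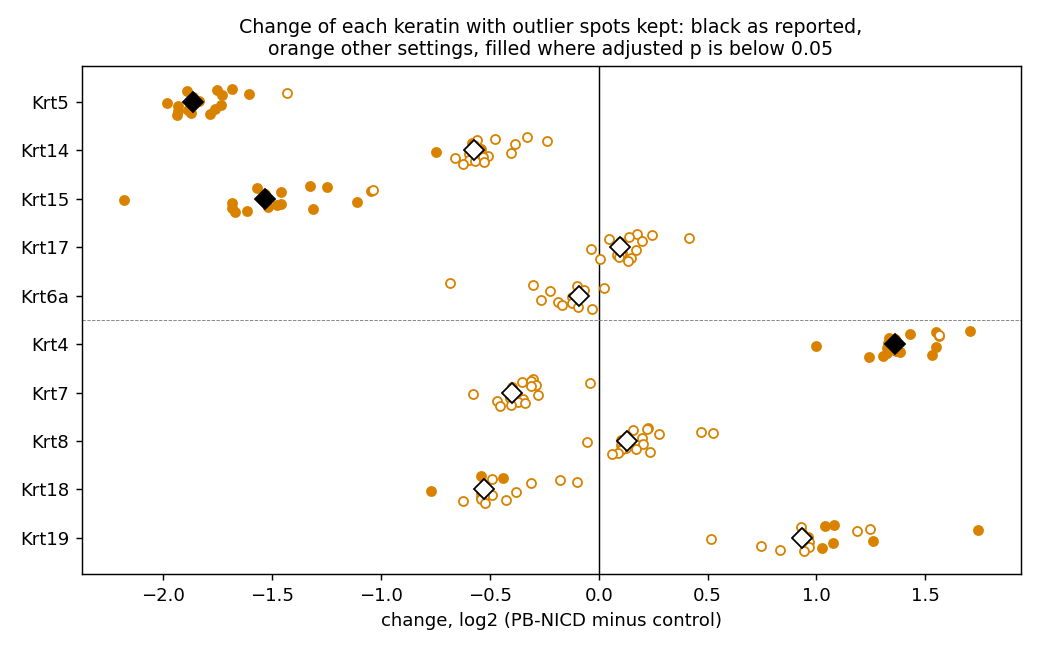
Change of each keratin (horizontal axis, log2, PB-NICD minus control) with outlier spots kept, as reported (black diamonds) and under every other processing setting or with an array left out (orange circles), filled where the limma adjusted p was under 0.05. Krt5 stays between -1.99 and -1.43, Krt15 between -2.18 and -1.04 and Krt4 between 1.00 and 1.70, each with 1 open circle, from median centring in place of loess, while Krt17, Krt6a and Krt8 cross 0.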

How the data were processed

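Per the labels' protocols, Trizol total RNA was labelled by direct cDNA synthesis, the sample in red and the reference in green, without dye swap. Per the file headers, Agilent Feature Extraction 10.7.3.1 gave the deposited spot intensity per channel, and the LogRatio column holds log10 ratios of red to green after the software's own processing. The other deposited columns are flags per spot (score 0 or 1 for well above background, saturated or outlier). The authors also deposited a value table that behaves as a log2 ratio centred near 0. How it was normalized is not known here. Its columns correlated at 0.849 to 0.895 with the log10 ratio of their own array.

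Median spot and background signals were corrected with normexp (offset 50) and scaled by loess within each array, control spots (1639 of 45018) having weight 0, in limma 3.58.1 under R 4.3.3. The plan was to set outlier spots in either channel to missing. A second series kept them. A probe was tested if well above background in the sample channel on at least 3 arrays, with 2 values in each group, and the brightest probe stood for a gene. RefSeq accessions gave a symbol to 24375 of 41174 probes and none to 16799. Changes were tested with lmFit and eBayes over both groups. The number of arrays limits the precision. An offset of 50 understates changes of dim spots. The arrays' design uses an older genome build than the promoter windows, and no coordinate of a probe is given.

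The members, gene lists and tests were chosen with earlier results of these data known. The text names all members, every gene of a list called in either series, the lowest p-values up to 3 in the other keratins and network partners, and the 5 profiles nearest to Krt5, of which 1 is not reported here. Other genes of the marker lists (Trp63, Upk1a, Upk1b, Msln) are named as defining markers, chosen after their values were seen. Alternatives covered background correction, scaling, filters, probe choice, slide, replicate number, the authors' table and each array left out.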

Additional observations from a re-analysis of the deposited data

Results flagged for a closer look

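Among 30 sets of 4 control values checked for a control array far from the others, 2 passed Dixon's critical value for 4 samples, both at control 3, and chance flags about 1 in 20 such sets. Cd24a had a log2 ratio of 5.86 in control 3 (an outlier spot), against 5.55 to 5.60 in the other controls, of which the spot of control 1 was also an outlier. Asns had 0.98 in control 3, against 0.49 to 0.56 in the other controls. No keratin of the 10 passed this value.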

How the results depend on the processing

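Krt5 was lower in PB-NICD under all 23 alternatives, with changes from -1.99 to -1.43, and lost its call in 1 of them, median centring in place of loess (limma adjusted p = 0.632). With outlier spots left out, 2 of the 10 keratins were called. This count was 0 with median centring (limma, 2 at an unadjusted p under 0.05), 4 with quantile scaling, 6 in the authors' table and 1 to 2 with each array left out in turn. With the spots kept, 3 were called. The count was then 5 with processed signals, 5 without background subtraction, 5 with quantile scaling, 6 with probes well above background on all 7 arrays, 6 with the slide as a fixed block, 6 as a random block, 5 within slide 1, 0 with median centring (limma, 4 at an unadjusted p under 0.05) and 3 to 4 with each array left out. Among all items in this series, 90 rose and 538 fell as reported, 632 and 767 with processed signals and 714 and 1076 without background subtraction. The larger counts of keratins thus came with more calls over all items in these 2 settings. Under median centring Krt15 (-1.04, limma adjusted p = 0.823) and Krt4 (1.56, limma adjusted p = 0.713) lost their calls as well. With the replicate number as a block, the count was 1 without outlier spots, where Krt15 had -1.76 (limma adjusted p = 0.0541), and 3 with them. Same-numbered samples deviated together at r = 0.353, -0.381 and 0.261. Every PB-NICD and control pair on the same slide had a positive r (0.261 to 0.461), and every pair on different slides a negative one (-0.442 to -0.273). PB-NICD 2 and control 2 lay on different slides, so these values cannot tell whether the numbers pair the samples. Krt17 turned from -0.01 to 0.13 with processed signals, 0.20 without background subtraction, 0.054 with an offset of 16, 0.14 with median centring, 0.045 with the sample channel alone, 0.10 with outlier spots kept, 0.26 in the authors' table, and ran from -0.019 to 0.0014 with each control or PB-NICD 2 left out, the highest without control 1 (without PB-NICD 1 or 3 it had too few values). With outlier spots kept it was -0.036 within slide 1. Krt6a was 0.026 with median centring and Krt8 -0.055 within slide 1. None of these reversed values was called. The median of all items moved to 0.12 with median centring (0.15 with outlier spots kept) and to -0.25 within slide 1 (-0.21 with outlier spots kept). Of all calls, 68 rose and 387 fell as reported, 500 and 638 with processed signals, 631 and 910 without background subtraction, 387 and 486 with quantile scaling, 79 and 209 with the sample channel alone, 504 and 560 without PB-NICD 1, 80 and 2310 within slide 1, 352 and 492 within slide 2, 182 and 1199 with the slide as a fixed block, 131 and 833 as a random block and 1460 and 2257 in the authors' table. Krt5 minus Krt14 was -1.02 with quantile scaling and otherwise -1.37 to -1.19, and Krt8 minus Krt18 0.58 to 0.77. Over all alternatives, calls numbered 0 to 5 in the other keratins, 0 to 5 in the network partners, 0 to 8 in the basal, 0 to 6 in the luminal, 0 to 3 in the proximal luminal, 0 to 3 in the urothelial, 0 to 2 in the squamous, 0 to 1 in the mesothelial, 0 to 5 in the smooth muscle, 0 to 2 in the fibroblast and 0 to 1 in the seminal vesicle list. The causes were not tested. Krt6a is limited by its dim spot, and Krt4 rests on outlier spots.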

Other observations

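With outlier spots kept, the 5 genes with a symbol whose centred profile over the 7 arrays was nearest to that of Krt4, among 13128 candidates, were sought after its values were seen. They were Anxa3 (root mean square difference 0.0748), a calcium-dependent membrane-binding annexin, Fam3c (0.118), a secreted protein, Hilpda (0.118), a lipid droplet protein, Slc19a2 (0.125), a thiamine transporter, and Osbpl3 (0.135), an oxysterol-binding protein. The median over candidates was 0.745. Anxa3 had log2 ratios of 0.30, 0.68 and 0.98 in PB-NICD 1, 2 and 3, against -0.56, -0.60, -0.68 and -0.74 in controls 1 to 4. The 5 changes ran from 1.18 for Osbpl3 to 1.41 for Fam3c, sizes that the choice by likeness to Krt4 fixes.

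Of the 7 seminal vesicle markers, 2 could be tested with outlier spots left out and none was called in limma (0 at an unadjusted p under 0.05). Svs4 had log2 ratios of 3.42, 0.71 and 0.66 in PB-NICD 1, 2 and 3, against 2.36, 9.39, -0.03 and -0.28 in controls 1 to 4, a spread within each group that is wider than the difference between them. Svs4 was lower on every array of slide 2 than on any of slide 1, and its bearing on the keratin results was not tested.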
